A study of Marchantia polymorpha with 9 samples.

Results

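The genes described here are *MpBHLH12* (Mapoly0031s0161) and 9 other basic helix-loop-helix (bHLH) genes of the liverwort *Marchantia polymorpha*, 10 of the 19287 genes in the expression table. They were taken by identifier from the phylogeny with which the study placed *MpBHLH12* among bHLH proteins of *Arabidopsis thaliana*. The rule uses no expression value, but the choice was made with earlier results of these data known. RNA-Seq was performed on 3-week-old thalli, the flat green body of the haploid plant, grown under continuous light without further treatment. The groups were wild-type Tak-1, a male strain, and its transformants MpBHLH12ox#2 and MpBHLH12ox#3, each with 3 replicates by the sample labels. The labels call the transgene MpGL3, another name of *MpBHLH12*. Both lines were made from Tak-1 and carried the coding sequence of *MpBHLH12* fused to Citrine, a yellow fluorescent protein, under the constitutive 35S promoter. The promoter is not specific to a cell type, where the transgene was expressed was not measured here, and reads from the transgene and from the resident gene cannot be told apart in these values. In the bulk tissue, fewer cells of a type and less RNA per cell cannot be told apart either.

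The bHLH proteins are transcription factors that bind DNA through a basic region and pair with one another through a helix-loop-helix. In *A. thaliana*, the IIIf subgroup (AtGL3, AtEGL3, AtTT8 and AtMYC1) works in a complex with R2R3 MYB and WD40 repeat proteins, called MBW, which controls trichome and root hair patterning and the pigments of the flavonoid pathway. The neighbouring subgroups have other roles in that species: Ia holds SPCH, MUTE and FAMA, which drive the stomatal lineage, IIIe holds the MYC proteins that activate jasmonate responses, IIId holds the JAM proteins that dampen them, and IVa holds NAI1, which is needed for endoplasmic reticulum bodies. In the study's tree, *MpBHLH12* stood in IIIf with Mapoly0098s0046 beside that subgroup, MapolyY_B0018 and Mapoly0018s0018 stood with IIIe, and Mapoly0100s0033 and Mapoly0034s0053 stood with IVa. Mapoly0031s0072 and Mapoly0029s0130 lay near Ia, and Mapoly0013s0167 and Mapoly0028s0058 grouped with *M. polymorpha* genes alone. The roles known from *A. thaliana* were not tested for these genes.

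Expression is given as FPKM (fragments counted per length of the gene and per size of the library), which the authors averaged to 1 value per group. The replicate values and the depth of each library are not in the averages, so no value has a replicate error and no test was possible. A gene was counted as expressed at 1 FPKM or more in any group. This held for 13324 genes, among them *MpBHLH12* and 6 of the 9 other bHLH genes. Changes were computed as log2(FPKM + 1) of a line minus Tak-1, which understates the change of genes with low FPKM, and a size of 1 or more was called. The difference between the lines was the only spread at hand. It was read for each gene beside the 500 expressed genes nearest to it in mean log2 level over the 3 groups. Of these, 68% differed between the lines by less than the stated value. For *MpBHLH12* that mean was raised by the lines. The spread does not measure the error of comparing different genes within a group. As a check of the male label, 35 of the 113 genes with a Y identifier reached 1 FPKM in Tak-1, as did 38 in MpBHLH12ox#2 and 37 in MpBHLH12ox#3. The qRT-PCR standard of the study, the elongation factor gene Mapoly0024s0116, had log2 changes of 0.19 in MpBHLH12ox#2 and 0.15 in MpBHLH12ox#3.

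*MpBHLH12*, the IIIf member and the gene on the transgene, averaged 548 FPKM in MpBHLH12ox#2 and 475 in MpBHLH12ox#3, against 20.3 in Tak-1. The level of the lines was 27.0 times that of Tak-1 in MpBHLH12ox#2 and 23.4 times in MpBHLH12ox#3. In Tak-1 the gene was thus expressed without the transgene, at place 4934 of the 19287 genes. In the lines it stood at places 179 and 199. On the log2 scale the change was 4.69 for MpBHLH12ox#2 and 4.48 for MpBHLH12ox#3. MpBHLH12ox#3 minus MpBHLH12ox#2 was -0.21, while the spread of genes of like level was 0.14. The summed FPKM of the 10 bHLH genes came to 139 for Tak-1, 678 for MpBHLH12ox#2 and 600 for MpBHLH12ox#3, of which *MpBHLH12* made up 14.6%, 80.8% and 79.1%. Without *MpBHLH12*, the sum was 119, 130.5 and 125 FPKM, so the excess of the lines lay almost entirely in that gene.

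**Figure D1:**
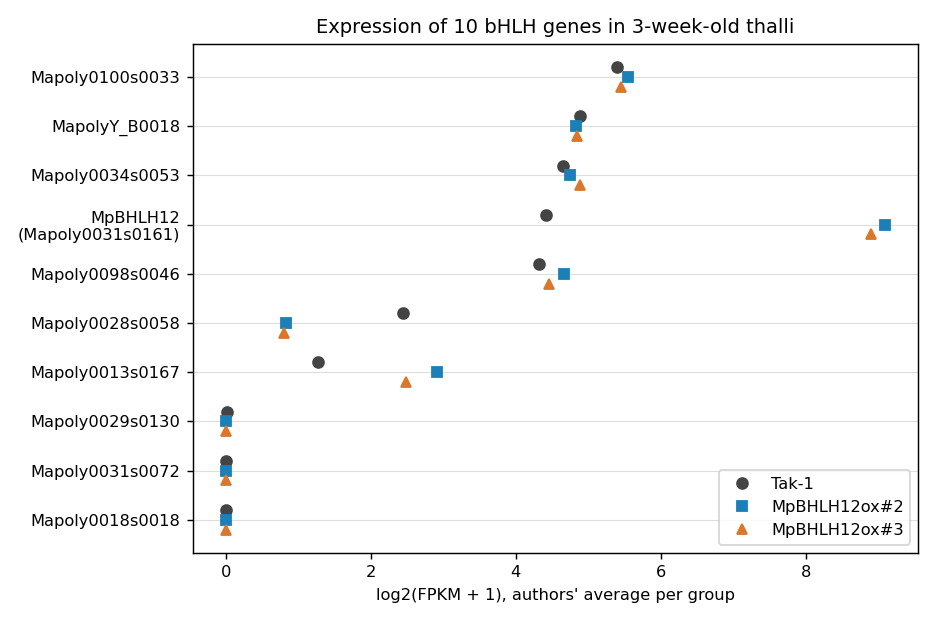
Level of each of the 10 bHLH genes as log2(FPKM + 1), the authors' average per group, with 1 symbol per group and genes in order of their Tak-1 level. *MpBHLH12* stood apart in both lines, Mapoly0013s0167 lay above and Mapoly0028s0058 below Tak-1 in both lines, and 3 genes lay at or near 0 in each group.

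In Tak-1, *MpBHLH12* was not the most abundant of these genes. Mapoly0100s0033, one of the pair beside IVa, was highest, with 41.3 FPKM in Tak-1, against 45.7 in MpBHLH12ox#2 and 42.6 in MpBHLH12ox#3. MapolyY_B0018, which stood with the jasmonate regulators of IIIe, had 28.6, 27.4 and 27.7 FPKM in the same order. Mapoly0034s0053, the other IVa gene, had 24.1, 25.7 and 28.5 FPKM. Mapoly0098s0046, the gene next to IIIf, had 19.0, 24.3 and 20.9 FPKM. These 4 genes and *MpBHLH12* made up an upper tier in Tak-1. The smallest step down within it lay between *MpBHLH12* and Mapoly0098s0046, 0.09 on the log2 scale against a spread of 0.14. The other steps exceeded the spread of like-level genes. That spread is a difference between the lines and holds no error of Tak-1 or of comparing different genes. It does not decide which of these genes differ in level, so their order was not tested. Below them came Mapoly0028s0058 with 4.44 FPKM and Mapoly0013s0167 with 1.42 FPKM in Tak-1, and then the 3 genes that did not reach 1 FPKM in any group.

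The 4 genes of the upper tier other than *MpBHLH12* stayed near their Tak-1 level in both lines. The log2 changes in MpBHLH12ox#2 and MpBHLH12ox#3 were 0.15 and 0.04 for Mapoly0100s0033. They were 0.09 and 0.24 for Mapoly0034s0053. They were -0.06 and -0.04 for MapolyY_B0018, the smallest of the 4. The highest value was that of Mapoly0098s0046, with 0.34 in MpBHLH12ox#2 but 0.13 in MpBHLH12ox#3. There MpBHLH12ox#3 minus MpBHLH12ox#2 was -0.21, more in size than the spread of 0.12 among genes of like level. None of the 4 genes reached a size of 1 in either line. The spread was 0.12 for each of the 4. It was exceeded by both changes of Mapoly0098s0046, by that of Mapoly0034s0053 in MpBHLH12ox#3 and by that of Mapoly0100s0033 in MpBHLH12ox#2. In MpBHLH12ox#2, the steps from MapolyY_B0018 to Mapoly0034s0053 and from there to Mapoly0098s0046 were each within the spread. In MpBHLH12ox#3, the step between Mapoly0034s0053 and MapolyY_B0018 was within it too. Since the spread does not measure the error of comparing different genes, the order within the lines was not tested either.

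Mapoly0013s0167 and Mapoly0028s0058, both of the group with *M. polymorpha* genes alone, were the bHLH genes besides *MpBHLH12* that passed the size of 1, and they did so in opposite directions. These were 2 of the 6 other expressed bHLH genes in each line. Over all expressed genes, percent called was 4.2% in MpBHLH12ox#2 and 4.59% in MpBHLH12ox#3, and 3.08% in both lines in the same direction. Both genes had low FPKM, and among the 4864 genes with a mean of 1 to 10 FPKM the percent called in both lines was 3.89%. With 6 genes, 1 gene more or less moves the share widely, and the genes were not drawn at random. Mapoly0028s0060 and Mapoly0028s0062, of the same phylogeny but not counted here, were also expressed and did not pass the size. The median change of the 6 genes was 0.12 in MpBHLH12ox#2 and 0.09 in MpBHLH12ox#3, beside 0.0020 and 0.0038 over all expressed genes.

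Mapoly0013s0167 averaged 6.55 FPKM in MpBHLH12ox#2 and 4.61 in MpBHLH12ox#3, against 1.42 in Tak-1, ratios of 4.63 and 3.25. This made log2 changes of 1.64 and 1.21. MpBHLH12ox#3 minus MpBHLH12ox#2 was -0.43 on the log2 scale, beyond the spread of 0.17. With these values the gene passed from place 12442 of all genes in Tak-1 to places 9625 and 10603, and from below to above Mapoly0028s0058.

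Mapoly0028s0058, for which the study designed a qRT-PCR primer pair, averaged 4.44 FPKM in Tak-1, against 0.782 in MpBHLH12ox#2 and 0.752 in MpBHLH12ox#3. The Tak-1 level was 5.68 times that of MpBHLH12ox#2 and 5.90 times that of MpBHLH12ox#3. The log2 changes were -1.61 and -1.63, and MpBHLH12ox#3 minus MpBHLH12ox#2 was -0.02, within the spread of 0.21. Both lines were under 1 FPKM, so the gene was expressed in Tak-1 only by that limit.

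**Figure D2:**
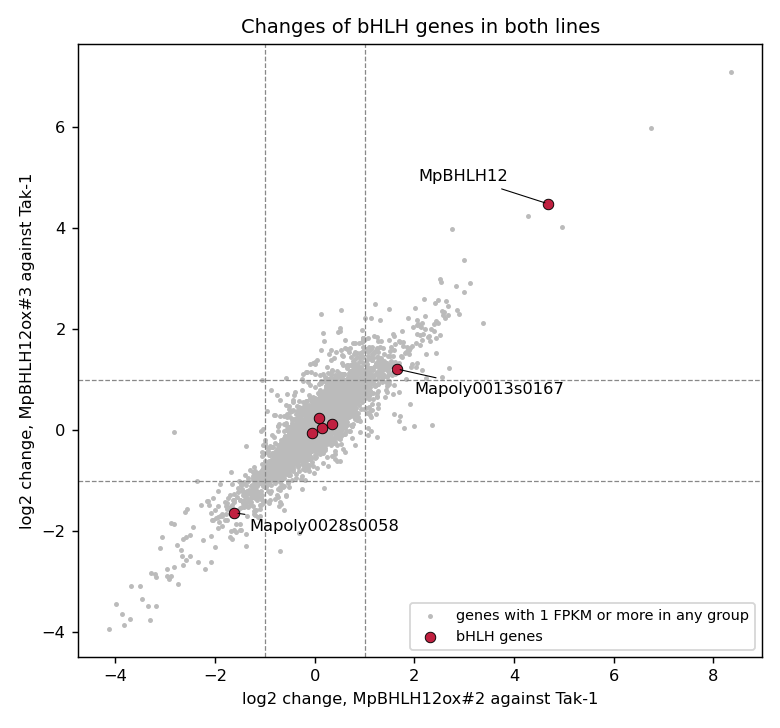
Log2 change against Tak-1 in MpBHLH12ox#2 (horizontal) and MpBHLH12ox#3 (vertical) for each of the 13324 expressed genes (grey) and the 7 expressed bHLH genes (red), with dashed lines at a size of 1. Both axes share the Tak-1 average. *MpBHLH12* and Mapoly0013s0167 lie past 1 in both lines, Mapoly0028s0058 lies past -1, and the other 4 lie near 0.

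Identifiers number genes along a scaffold, and Mapoly0028s0058 lies among further bHLH genes. The study's phylogeny held 12 *M. polymorpha* genes, of which Mapoly0028s0060 and Mapoly0028s0062 are not counted among the 10. Mapoly0028s0060 averaged 10.4 FPKM in MpBHLH12ox#2 and 11.0 in MpBHLH12ox#3, against 6.02 in Tak-1, with changes of 0.70 and 0.77. Mapoly0028s0062 averaged 2.62 and 2.88 FPKM in the lines, against 4.88 in Tak-1, with changes of -0.70 and -0.60. These neighbouring bHLH genes thus had values of unlike direction, each with the same direction in both lines. Both changes of a gene share the Tak-1 average, so the lines do not give this direction independently. The sources used here do not say how reads shared by similar genes were counted, so the split among these genes is uncertain. Of the 10 genes within 5 numbers of Mapoly0028s0058, both of these included, 6 were expressed and none passed a size of 1.

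The same was seen next to *MpBHLH12*. Of the 10 genes within 5 numbers of it, 5 were expressed and none passed a size of 1 in either line. Their log2 changes ran from -0.44 to 0.08 in MpBHLH12ox#2 and from -0.49 to 0.54 in MpBHLH12ox#3. Over all expressed genes, 4.2% passed the size in MpBHLH12ox#2 and 4.59% in MpBHLH12ox#3. With so few expressed genes, none past the size lies near that share, here and next to Mapoly0028s0058. Next to Mapoly0013s0167, 9 of the 10 genes were expressed and 1 passed the size in both lines, beside 3.08% of all expressed genes. This was Mapoly0013s0168, named after its values were seen, which had 1.06 FPKM in Tak-1 and was listed at 0 in both lines. It counted as expressed through Tak-1 alone, and any fall from 1 FPKM or more to 0 reaches a size of 1 by construction. Its log2 change of -1.05 had the opposite direction to that of the bHLH gene. That change rests on a value at the floor, so neither the count nor the direction is read further.

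**Figure D3:**
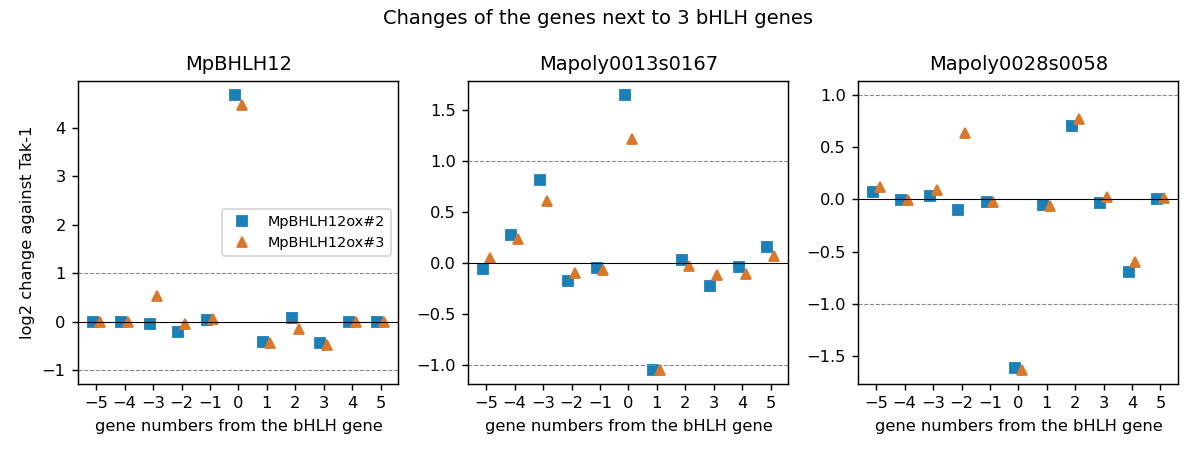
Log2 change against Tak-1 in each line for the genes within 5 numbers of *MpBHLH12*, Mapoly0013s0167 and Mapoly0028s0058 on their scaffolds, with the bHLH gene at 0 and dashed lines at a size of 1; the vertical scales differ. Past a size of 1 lie the bHLH genes themselves and Mapoly0013s0168, at 1 in the middle panel.

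The remaining 3 genes were at or near 0 in these thalli, all from male plants. Mapoly0031s0072 had 0.00571 FPKM in Tak-1 and was listed at 0 in both lines. Mapoly0029s0130 averaged 0.0110 FPKM in Tak-1, against 0.00201 in MpBHLH12ox#2 and 0.00309 in MpBHLH12ox#3. Both genes, which lay near the stomatal subgroup Ia in the tree, were thus barely listed with the transgene or without it, and levels this low give no direction. Mapoly0018s0018, the second gene beside the MYC proteins of IIIe, was listed at 0 in each of the 3 groups, while MapolyY_B0018, its partner in the tree, had about 28 FPKM.

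The scaffolds of these genes differed. On scaffold 18, 6 of the 32 genes had 1 FPKM or more in each group, and 18 of them, Mapoly0018s0018 included, were listed at 0 in all groups. Of the 10 genes within 5 numbers of Mapoly0018s0018, none was expressed, and the highest FPKM among them was 0.222. Among the 190 scaffolds with 20 or more genes, the share of genes with 1 FPKM or more in Tak-1 had a median of 67.9%, and 1 scaffold lay below the 18.8% of scaffold 18. The table gives no X, Y or autosome label for numbered scaffolds, so the chromosome that scaffold 18 belongs to was not determined. Mapoly0031s0072 and Mapoly0029s0130 lay among expressed genes. On scaffold 31, which also holds *MpBHLH12*, 60.5% of the genes had 1 FPKM or more in Tak-1, and on scaffold 29 it was 72.3%. Within 5 numbers of Mapoly0031s0072, 6 of 10 genes were expressed, and within 5 numbers of Mapoly0029s0130, 7 of 10.

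**Figure D4:**
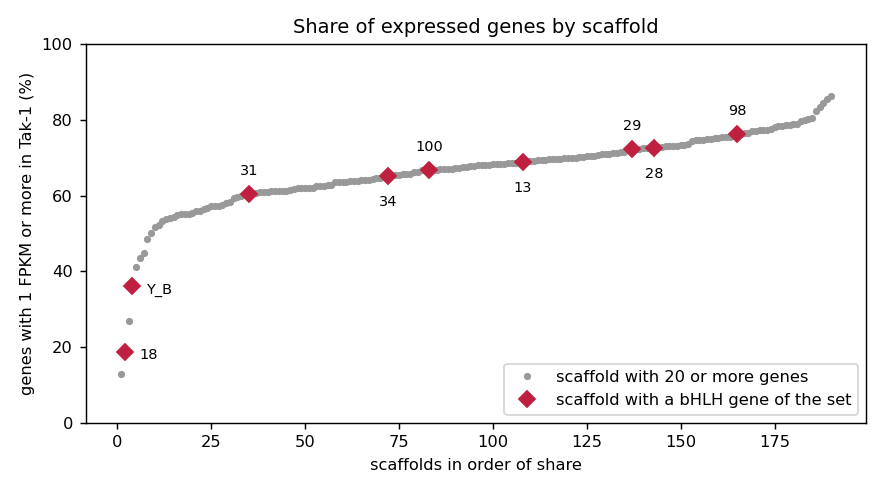
Share of genes with 1 FPKM or more in Tak-1 for the 190 scaffolds with 20 or more genes, in order of that share; red diamonds mark scaffolds with a bHLH gene of the set, with their numbers. Scaffold 18, at 18.8%, and Y_B, at 36.0%, lie at the low end, and the other 7 lie between 60.5% and 76.3%.

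MapolyY_B0018 lies on one of the Y scaffolds of the male plant. Its 28.6 FPKM in Tak-1 put it at place 13 of the 113 genes with a Y identifier, and it was at places 13 and 12 in the lines. On its scaffold, 18 of 50 genes had 1 FPKM or more in Tak-1. No Y gene passed a size of 1 in either line, and 38 of them were expressed. Over all expressed genes, 4.2% passed it in MpBHLH12ox#2 and 4.59% in MpBHLH12ox#3. At that share few of 38 genes would pass, so the count is not read as a trait of Y genes. The annotation held here, which covers a part of the genes, marked 1 more gene with a helix-loop-helix domain, Mapoly0001s0259. It averaged 74.9 FPKM in Tak-1, against 70.5 in MpBHLH12ox#2 and 67.8 in MpBHLH12ox#3, above every one of the 10 genes in Tak-1, and its log2 changes were -0.09 and -0.14.

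Since *MpBHLH12* was raised by the transgene, the genes with the most similar pair of changes were looked up, by the distance between the log2 changes in both lines. Over 3 group averages, this likeness rests on 2 numbers per gene. The nearest were Mapoly0041s0039 at a distance of 0.48 and Mapoly0015s0172 at 0.52. Then came Mapoly0118s0026 at 2.00, Mapoly0161s0003 at 2.02 and Mapoly0035s0092 at 2.21. Mapoly0041s0039 averaged 75.3 FPKM in MpBHLH12ox#2 and 73.6 in MpBHLH12ox#3, against 2.94 in Tak-1. Mapoly0015s0172 averaged 39.8 and 20.5 FPKM in the lines, against 0.316 in Tak-1. Its FPKM ratios were 126 and 64.8, beside 27.0 and 23.4 for *MpBHLH12*, so its nearness depends on the 1 added to FPKM. Other added values were not tried for this list. No other bHLH gene of the set was among these 5.

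In *A. thaliana*, IIIf bHLH proteins act on genes of the phenylpropanoid and flavonoid pathways, for which the study compiled a list of 82 shikimate and phenylpropanoid genes. Of these, 74 were expressed, among which 10 were higher by a size of 1 and 1 was lower in MpBHLH12ox#2. In MpBHLH12ox#3, 12 were higher and 1 was lower. Over all expressed genes, 2.15% were higher and 2.06% lower in MpBHLH12ox#2, and 2.77% and 1.82% in MpBHLH12ox#3. The median change of the 74 expressed genes was 0.27 and 0.30. Polyketide/chalcone synthases make the flavonoid skeleton and related polyketides. Of their 24 genes, 19 were expressed, and 5 were higher by that size in MpBHLH12ox#2 and 7 in MpBHLH12ox#3. Of 10 genes for phenylalanine ammonia lyase, the entry enzyme of the pathway, 1 was higher in both lines: Mapoly0132s0049, with 155 FPKM in MpBHLH12ox#2 and 161 in MpBHLH12ox#3, against 53.6 in Tak-1. The largest mean increase among the polyketide/chalcone synthase genes past the size in both lines was that of Mapoly0070s0036, with log2 changes of 1.74 and 1.97, and among the flavonol O-methyltransferase genes that of Mapoly0129s0005, with 1.87 and 1.59. Mapoly0063s0049, of the NAD dependent epimerase group, had 1.43 and 1.30, and Mapoly0067s0104, a UDP-glycosyl transferase gene, had 1.27 and 1.29. Of the 13 genes of the shikimate and arogenate pathways, which supply phenylalanine, none reached the size in either line. None of the 3 genes for cinnamate 4-hydroxylase, the 3 for 4-coumaroyl-CoA ligase and the 2 for chalcone isomerase or its like reached it. With so few genes, none past the size lies near the share of all expressed genes, so these steps are not read as unchanged. The median changes in MpBHLH12ox#2 and MpBHLH12ox#3 were 0.05 and 0.17 for the shikimate and arogenate genes. They were 0.32 and 0.54 for cinnamate 4-hydroxylase, 0.31 and 0.22 for 4-coumaroyl-CoA ligase, and 0.23 and 0.03 for chalcone isomerase. Mapoly0047s0001, also a UDP-glycosyl transferase gene, was the single gene lower by a size of 1. It had 0.880 FPKM in MpBHLH12ox#2 and 1.22 in MpBHLH12ox#3, against 26.6 in Tak-1.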

How the data were processed

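The deposited values are FPKM of 19287 genes, averaged by the authors to 1 value for each group, with 3 replicates behind each group by the sample labels. Reads were mapped by the authors to the JGI 3.1 genome with Bowtie2 and fragments were determined with HTSeq. The submitters' processing notes name Bowtie2, HTSeq and Cuffdiff 2.2.1 without saying which made the FPKM. The sources used here do not give the annotation or any filter. FPKM corrects for gene length, so levels of genes can be compared, but depth and replicate spread are lost in averages.

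Changes against Tak-1 were taken as differences of log2(FPKM + 1), and a size of 1 was called. The planned linear model for replicate values could not be run. Genes that reached 1 FPKM in any group counted as expressed. The 10 members, the gene lists and the size rule were chosen with earlier results of these data known. The genes named were the members, the 5 genes nearest in pattern to MpBHLH12, its neighbours past the size rule, Mapoly0001s0259, and the most changed gene of each enzyme group past the size rule. Mapoly0028s0060, Mapoly0028s0062, Mapoly0024s0116 and Mapoly0013s0168 lie outside it. The enzyme groups follow the annotations of the study's list, and places in the tree follow its figure. The RefSeq-style gene table of MpTak2_v7.1 matched 0 identifiers, so no coordinate or sequence is given. Alternatives were pseudocounts of 0.1 and 5, sizes of 0.5 and 2, rescaling, and other filters. The code for the calls was run on simulated averages, with larger changes set into genes of higher level than Mapoly0013s0167 and Mapoly0028s0058. That run checks the code and does not cover the calls of these low genes. Python 3.11.15, numpy 2.4.6, pandas 2.3.3 and matplotlib 3.10.9 were used.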

Additional observations from a re-analysis of the deposited data

How the results depend on the processing

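No paired analysis was possible because each group is given as 1 average, without replicate values. Omission of single replicates and the linear model with a replicate block were not run for that reason, and depth could not be examined. Moves were judged against the difference between the lines in genes of like level. With a pseudocount of 5, the change of MpBHLH12 moved from 4.69 to 4.45 in MpBHLH12ox#2 and from 4.48 to 4.25 in MpBHLH12ox#3. The number of other bHLH genes past the size rule was 2 in MpBHLH12ox#2, in MpBHLH12ox#3 and in both lines. In each case it became 0 with a pseudocount of 5, 0 at a size of 2 and 0 when a mean of 5 FPKM was required, since that filter leaves out both genes and a larger pseudocount or size lowers such counts by construction. It remained 2 with a pseudocount of 0.1, at a size of 0.5, without a filter and after rescaling, where the shift was 0.0020 and 0.0038. A smaller pseudocount, a smaller size or no filter can only keep or raise the count. The shift was small beside the changes called. These settings could thus not have lowered the count, and that it remained is no support for the calls. A pseudocount of 0.1 took Mapoly0013s0167 to 2.13 and 1.63 and Mapoly0028s0058 to -2.36 and -2.41, and a pseudocount of 5 took them to 0.85 and 0.58 and to -0.71 and -0.71. No direction reversed under these settings, and a pseudocount cannot reverse one by construction. The other 14 changes of single genes moved by less than that spread. These include the changes of Mapoly0031s0072, Mapoly0029s0130 and Mapoly0018s0018, which lay at or near 0 in every group. Their spread was taken from expressed genes of higher level, so for them it is no measure of a move.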
